A study of Mus musculus with 11 samples.

Results

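The brakes on cyclin-dependent kinases and the axis of p53 and its inhibitor were examined in cultured lung mesenchymal cells that carried 2, 1 or no working copies of *Sp3*. The set held 9 genes, *Cdkn1a*, *Cdkn1b*, *Cdkn1c*, *Cdkn2a*, *Cdkn2b*, *Cdkn2c*, *Cdkn2d*, *Trp53* and *Mdm2*, chosen by symbol from the 24062 genes of the count files. All 9 were measured in all 11 libraries and all 9 passed the filter on low counts. RNA came from primary mesenchymal cells of mouse fetal lungs at embryonic day 15, which had been selected by adhesion to plastic and passaged before lysis. The labels name 4 wild-type (*Sp3*+/+, WT), 4 *Sp3*+/- and 3 *Sp3*-/- libraries, and they name no treatment, strain or sex. The mutant allele is germline, so every cell of an embryo carries it.

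Sp3 is a zinc finger transcription factor that binds GC boxes, and it can raise or lower transcription. A cell enters S phase when cyclin-dependent kinases (CDKs), switched on by cyclins, phosphorylate the retinoblastoma protein. The Cip/Kip inhibitors p21 (*Cdkn1a*), p27 (*Cdkn1b*) and p57 (*Cdkn1c*) bind complexes of cyclin and CDK, and the Ink4 inhibitors p16 (*Cdkn2a*), p15 (*Cdkn2b*), p18 (*Cdkn2c*) and p19 Ink4d (*Cdkn2d*) hold Cdk4 and Cdk6 away from D cyclins. *Cdkn2a* also encodes Arf, from another first exon. Arf restrains Mdm2, the ubiquitin ligase that marks p53 (*Trp53*) for destruction, while p53 activates both *Cdkn1a* and *Mdm2*. The *Ink4/Arf* locus is known for becoming active when mouse cells are kept in culture.

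Libraries are called by the 2 numbers of their label (468-4), and some titles end in a further suffix of 2 or 3. The suffix nearly coincided with genotype. All 3 *Sp3*-/- libraries had none, and among the 8 libraries with *Sp3* only WT 468-4 and *Sp3*+/- 697-4 had none in their title, although the file of 697-4 carries the suffix 2. What the suffix stands for is not stated. Reads counted on genes ranged from 9849111 to 59297495 per library (median 34968482). *Sp3* itself checked the *Sp3*-/- label, while WT and *Sp3*+/- libraries overlapped in it. Its level was 6.52, 5.92, 6.75 and 6.30 log2 CPM (counts scaled to library size) in WT, 5.70, 5.98, 6.16 and 5.81 in *Sp3*+/-, and 4.24, 4.20 and 3.86 in *Sp3*-/-, so that *Sp3*-/- cells differed from WT by -2.30 on the log2 scale (standard error, SE, 0.21, edgeR adjusted p = 0.00611).

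The mesenchymal label was checked against markers of that and other cell types. Summed over 9 mesenchymal markers, the level was 13570 to 22457 CPM in WT, 15507 to 23117 in *Sp3*+/- and 7723 to 20748 in *Sp3*-/-. The 8 macrophage markers summed to 541 to 2984 CPM in WT, 328 to 2809 in *Sp3*+/- and 2787 to 10360 in *Sp3*-/-. The upper ends in WT and *Sp3*+/- were libraries 468-4 and 697-4, while the 6 libraries with a suffix held at most 807 CPM. The 5 mesothelial markers gave 526 to 1117, 1036 to 1880 and 1172 to 4167 CPM, and 6 epithelial markers 14.5 to 33.5, 21.1 to 31.5 and 46.3 to 151 CPM, in the same order of genotypes. Such sums follow the most abundant markers. Of the epithelial list 4 were higher in *Sp3*-/- than WT, 3 of them passing, *Cdh1* (4.81), *Epcam* (3.12) and *Krt18* (1.73). *Nkx2-1* and *Sftpc* were at -1.85 and -4.72 without passing. In that list 4 markers had under 4 reads in some library. Of the mesenchymal list 6 were lower and 3 higher. *Pdgfrb* (-2.13) and *Vim* (-0.46) passed as lower and *Dcn* (1.32) as higher, where 18.5% of all genes passed. Endothelial markers summed to at most 72.8 CPM and erythroid markers to at most 16.1 CPM in any library. More cells of a type and more RNA per cell cannot be told apart in bulk RNA, and the part of these cells in the results on the 9 genes was not tested.

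The upstream regions of 3 start sites in the *Ink4/Arf* locus and of both *Cdkn1a* start sites are printed because *Cdkn2a* and *Cdkn2b* were the neighbouring genes whose levels ran together across libraries, and *Cdkn1a* is the textbook p53 target. Sequences are from RefSeq (GRCm38.p6), 5′ to 3′ on the strand of the gene, up to the start site or to the first base of an annotated transcript of the gene. Capitals mark the GC box core GGGCGG, searched on both strands, and the p53 half-site.
Cdkn2a, Arf first exon, chr4:89294654-89294869, minus strand: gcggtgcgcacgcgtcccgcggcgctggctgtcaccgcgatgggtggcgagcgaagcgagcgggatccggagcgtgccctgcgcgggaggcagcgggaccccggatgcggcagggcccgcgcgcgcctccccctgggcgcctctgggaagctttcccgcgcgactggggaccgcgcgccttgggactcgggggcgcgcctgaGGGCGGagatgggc
Cdkn2a, Ink4a first exon, chr4:89282193-89282442, minus strand: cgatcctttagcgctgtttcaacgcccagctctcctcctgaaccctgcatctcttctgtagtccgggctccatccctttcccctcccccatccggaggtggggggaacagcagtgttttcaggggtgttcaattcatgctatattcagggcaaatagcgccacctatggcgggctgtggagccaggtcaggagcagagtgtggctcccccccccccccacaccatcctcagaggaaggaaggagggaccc
Cdkn2b, chr4:89311033-89311282, minus strand: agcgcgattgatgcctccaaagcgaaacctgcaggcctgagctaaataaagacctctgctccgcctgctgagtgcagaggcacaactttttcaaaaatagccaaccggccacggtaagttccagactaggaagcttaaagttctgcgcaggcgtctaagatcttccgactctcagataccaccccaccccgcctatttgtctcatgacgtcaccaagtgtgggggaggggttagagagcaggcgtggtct
Cdkn1a, upstream start site, chr17:29090729-29090978, plus strand: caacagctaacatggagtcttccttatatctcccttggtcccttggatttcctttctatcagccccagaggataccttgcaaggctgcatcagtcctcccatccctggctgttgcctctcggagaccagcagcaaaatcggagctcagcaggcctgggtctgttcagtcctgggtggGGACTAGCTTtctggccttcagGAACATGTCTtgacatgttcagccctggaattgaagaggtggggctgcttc
Cdkn1a, downstream start site, chr17:29093519-29093768, plus strand: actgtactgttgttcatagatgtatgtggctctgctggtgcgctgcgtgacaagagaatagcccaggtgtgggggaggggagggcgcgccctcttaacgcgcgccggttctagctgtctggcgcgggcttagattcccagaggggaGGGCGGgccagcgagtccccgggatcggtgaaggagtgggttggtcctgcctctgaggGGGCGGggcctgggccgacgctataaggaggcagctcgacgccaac

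Over the full 250 bases before a start site, 10756 of 32851 mouse windows (32.7%) held the GC box core. The Arf window held 2 cores (1 of them in the printed run) and the downstream *Cdkn1a* window 2, whereas the Ink4a, *Cdkn2b* and upstream *Cdkn1a* windows held none of these letters. Upstream of *Cdkn1a* there were 2 p53 half-sites, the nearer 41 bases from the start, and 7.13% of all windows held at least 1. *Cdkn2d* had 3 cores and 1 half-site, *Mdm2* 2 and 1, *Cdkn1b* 1 core, *Trp53* 1 half-site, and *Cdkn2c* 3 cores before its upstream start site and none before the other. *Cdkn1c* (chr7:143458339-143461059) had no entry. These matches describe letters, and binding was not measured here.

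Compared per length of exon, *Cdkn1a* was the most abundant of the 9 genes in WT cells, at 185 RPKM (reads per kilobase of exon, scaled to library size, mean of 4 libraries, range 162 to 211), above 99.3% of 12606 expressed genes. *Cdkn2a* followed at 94.7 RPKM, but its WT libraries spanned 55.3 to 204. *Mdm2* (46.2 RPKM, 38.8 to 56.3) and *Cdkn2b* (41.4 RPKM, 32.0 to 57.3) came next, with overlapping ranges. On this scale *Cdkn1c*, *Trp53*, *Cdkn2d* and *Cdkn1b* formed a lower group whose ranges also overlapped, at 14.0, 11.99, 10.9 and 9.10 RPKM. *Cdkn2c* was lowest, at 1.47 RPKM (0.631 to 2.09). The length merged the exons of all annotated transcripts, 7379 bases for *Trp53*, 6358 for *Cdkn2c* and 1662 for *Cdkn2d*, so the order depends on annotation. In CPM, without length, the WT means of *Trp53*, *Cdkn1b*, *Cdkn1c*, *Cdkn2d* and *Cdkn2c* were 88.5, 41.4, 30.2, 18.1 and 9.33.

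**Figure D1:**
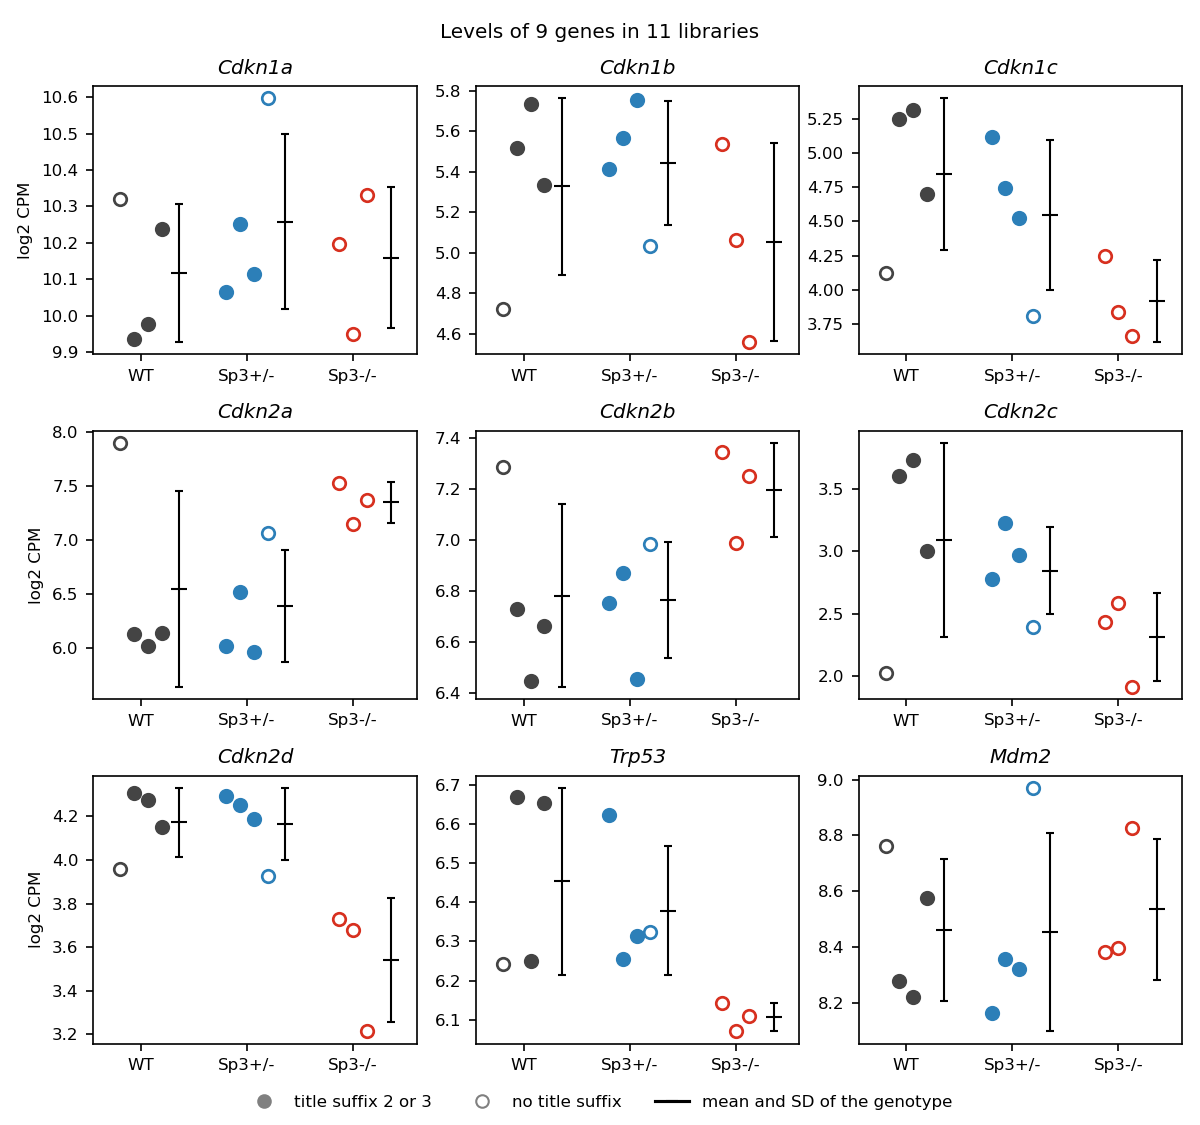
Log2 CPM of the 9 genes in each of the 11 libraries, by genotype. Each circle is a library, filled where the title has a suffix and open where it has none, and the bar beside each genotype gives its mean and SD. In *Cdkn2a* the open WT circle is at 7.90 and the filled WT circles lie at 6.02 to 6.14, while in *Cdkn2d* and *Trp53* the 3 *Sp3*-/- circles lie under all others.

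*Cdkn2d* was the 1 gene of the 9 that passed the test between *Sp3*-/- and WT cells, where 18.5% of 14025 genes passed in either direction and 9.77% passed as lower. Its transcript encodes p19 Ink4d, an inhibitor of Cdk4 and Cdk6 (chr9:21288459-21291421). Levels were 3.96, 4.31, 4.27 and 4.15 log2 CPM in WT, 4.29, 4.25, 4.19 and 3.93 in *Sp3*+/-, and 3.73, 3.68 and 3.21 in *Sp3*-/-. The 3 *Sp3*-/- libraries were all below the other 8. *Cdkn2d* fell to 0.650 of its WT level (log2 fold change -0.62, SE 0.16, 95% interval -0.99 to -0.25, edgeR adjusted p = 0.0367). It fell to 0.655 of the *Sp3*+/- level (log2 fold change -0.61, SE 0.15, edgeR adjusted p = 0.0152), a comparison in which 25.5% of 14130 genes passed and 12.5% passed as lower.

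The call against WT rested on few libraries. With each library left out in turn it passed in 2 of 7 fits, those without WT 468-4 or *Sp3*-/- 685-1, and missed the threshold without any of the other 5 libraries, with log2 fold changes from -0.72 to -0.49 and the highest edgeR adjusted p, 0.102, without *Sp3*-/- 697-2. Against *Sp3*+/- it passed in 11 of 11. Those fits drew on all 11 libraries and also left out WT libraries, which are not in that contrast, so the counts are not alike. With the title suffix as a covariate the log2 fold change of *Cdkn2d* against WT was -0.39 (SE 0.15, edgeR adjusted p = 0.121) and that against *Sp3*+/- was -0.37 (SE 0.15, edgeR adjusted p = 0.149), so neither call held.

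*Trp53* (chr11:69580348-69591873) was also lowest in *Sp3*-/- cells, but did not pass. It read 6.24, 6.67, 6.25 and 6.65 log2 CPM in WT, 6.62, 6.25, 6.31 and 6.32 in *Sp3*+/-, and 6.14, 6.07 and 6.11 in *Sp3*-/-. The *Sp3*-/- libraries did not overlap either other genotype, although WT 468-4 and 697-1 lay close above them. The ratio to WT was 0.777 (log2 fold change -0.36, SE 0.14, edgeR adjusted p = 0.0951). *Cdkn2d* and *Trp53* were the 2 of 9 genes without overlap between *Sp3*-/- and WT libraries, against 31.3% of all genes tested.

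*Mdm2* (chr10:117688875-117710758) did not separate the genotypes. Its levels were 8.76, 8.28, 8.22 and 8.58 log2 CPM in WT, 8.16, 8.36, 8.32 and 8.97 in *Sp3*+/-, and 8.38, 8.40 and 8.83 in *Sp3*-/-. The highest library was *Sp3*+/- 697-4, then *Sp3*-/- 697-5 and WT 468-4. *Sp3*-/- minus WT on the log2 scale was 0.08 (95% interval -0.35 to 0.50, edgeR adjusted p = 0.792), so a change between 0.785-fold and 1.41-fold was not resolved.

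*Cdkn1a* (p21, chr17:29090979-29100722) was abundant and varied little, by 1.58-fold between the lowest and highest of 11 libraries. It stood at 10.32, 9.94, 9.98 and 10.24 log2 CPM in WT, 10.07, 10.25, 10.11 and 10.60 in *Sp3*+/-, and 10.20, 9.95 and 10.33 in *Sp3*-/-. All 3 genotypes overlapped. Its log2 fold change in *Sp3*-/- against WT was 0.04 (SE 0.16, 95% interval -0.32 to 0.40, edgeR adjusted p = 0.873).

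*Cdkn1b* (p27, chr6:134920401-134925525) also overlapped between all genotypes. Levels were 4.72, 5.52, 5.74 and 5.34 log2 CPM in WT, 5.41, 5.57, 5.76 and 5.03 in *Sp3*+/-, and 5.54, 5.06 and 4.56 in *Sp3*-/-. Libraries 468-4 and 697-4 were the lowest of their genotypes. *Sp3*-/- minus WT on the log2 scale was -0.27 (SE 0.29, 95% interval -0.94 to 0.40, edgeR adjusted p = 0.522).

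*Cdkn1c* (p57, an imprinted growth inhibitor) had the largest log2 fold change of the Cip/Kip genes, without passing the test. It read 4.12, 5.25, 5.31 and 4.70 log2 CPM in WT, 5.11, 4.74, 4.52 and 3.81 in *Sp3*+/-, and 4.25, 3.84 and 3.66 in *Sp3*-/-. WT 468-4 and *Sp3*+/- 697-4 lay among the *Sp3*-/- libraries. The ratio of *Sp3*-/- to WT was 0.505 (log2 fold change -0.98, SE 0.31, 95% interval -1.70 to -0.27, edgeR adjusted p = 0.0612). The verdict depended on the method. *Cdkn1c* passed with DESeq2 (-0.98, DESeq2 adjusted p = 0.0126) and with a block for the first label number (-1.19, edgeR adjusted p = 0.0086). It did not pass with limma-voom (-0.82) or with the title suffix as a covariate (-0.18).

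*Cdkn2a* (chr4:89274473-89294619) was the most variable of the 9 genes, by 3.82-fold between libraries. Counts by symbol do not separate p16 from Arf transcripts. Levels were 7.90, 6.13, 6.02 and 6.14 log2 CPM in WT, 6.02, 6.52, 5.97 and 7.07 in *Sp3*+/-, and 7.53, 7.15 and 7.37 in *Sp3*-/-. WT 468-4 was the highest of all 11 libraries, and the other 3 WT libraries were below every *Sp3*-/- library. With all 4 WT libraries, the log2 fold change in *Sp3*-/- was 0.56 (SE 0.48, 95% interval -0.55 to 1.68, edgeR adjusted p = 0.425). Without 468-4, which leaves only WT libraries with a suffix beside *Sp3*-/- libraries with none, it was 1.25, a ratio of 2.38 (SE 0.12, edgeR adjusted p = 0.0028). The direction turned with the suffix as a covariate (-0.24), with 697-4 then coded by its file name (-0.54) and with the libraries without a suffix alone (-0.55), and *Cdkn2a* did not pass in any of these 3 fits. Against *Sp3*+/- it was 0.90 (SE 0.46, edgeR adjusted p = 0.170).

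Its neighbour *Cdkn2b* (p15, chr4:89306289-89311032) varied less, by 1.87-fold between libraries. It read 7.29, 6.73, 6.45 and 6.66 log2 CPM in WT, 6.75, 6.87, 6.46 and 6.98 in *Sp3*+/-, and 7.35, 6.99 and 7.25 in *Sp3*-/-. WT 468-4 lay within the *Sp3*-/- range and 697-4 just under it. The log2 fold change in *Sp3*-/- was 0.38 against WT (SE 0.20, edgeR adjusted p = 0.202) and 0.43 against *Sp3*+/- (SE 0.20, edgeR adjusted p = 0.132). As a description over the 11 libraries, which share depth, suffix and genotype, *Cdkn2a* and *Cdkn2b* had r = 0.94.

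*Cdkn2c* (p18, chr4:109660876-109666756) was the least abundant. It read 2.03, 3.60, 3.74 and 3.00 log2 CPM in WT, 2.78, 3.23, 2.98 and 2.398 in *Sp3*+/-, and 2.43, 2.59 and 1.91 in *Sp3*-/-. The lowest WT and *Sp3*+/- libraries were again 468-4 and 697-4, both among the *Sp3*-/- values. On the log2 scale *Sp3*-/- minus WT was -0.89 (SE 0.42, 95% interval -1.86 to 0.08, edgeR adjusted p = 0.162).

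**Figure D2:**
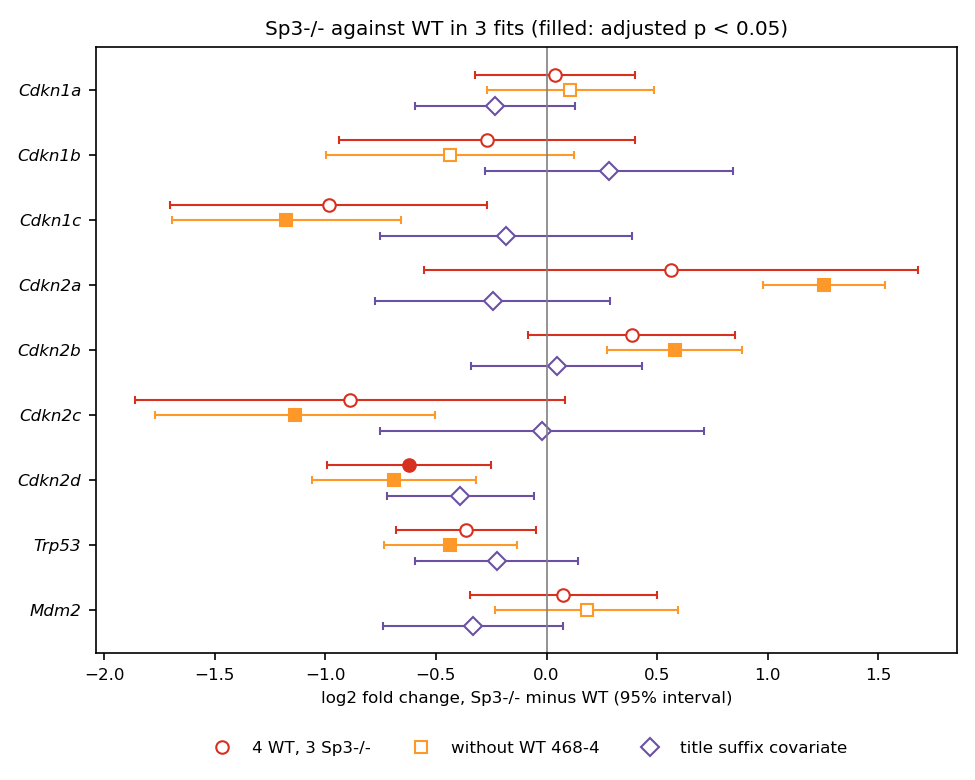
Log2 fold change in *Sp3*-/- against WT with its 95% interval for the 9 genes, in the comparison of 4 WT with 3 *Sp3*-/- libraries (circles), without WT 468-4 (squares) and with the title suffix as a covariate over 11 libraries (diamonds). Filled symbols passed an adjusted p of 0.05, which were 1, 6 and 0 genes, and *Cdkn2a* is at 0.56, 1.25 and -0.24.

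Without WT 468-4, 6 of the 9 genes passed between *Sp3*-/- and WT, where 29.9% of 13970 genes did. The remaining WT libraries all had a suffix and the *Sp3*-/- libraries had none, so genotype and suffix cannot be told apart in this fit, and leaving out any other library left 0 or 1 of the 9. In it *Cdkn2a* and *Cdkn2b* were higher, by log2 fold changes of 1.25 and 0.58, and *Cdkn1c* (-1.18), *Cdkn2c* (-1.14), *Cdkn2d* (-0.69) and *Trp53* (-0.43) were lower in *Sp3*-/- libraries. *Cdkn1a* and *Mdm2* remained near 0, at 0.11 and 0.18, and *Cdkn1b* was at -0.44 (edgeR adjusted p = 0.202). With the suffix as a covariate none of the 9 passed, where 10.3% of 14130 genes did. *Cdkn1c* was then at -0.18, *Cdkn2b* at 0.05, *Cdkn2c* at -0.02 and *Mdm2* at -0.33, and the smallest edgeR adjusted p was that of *Cdkn2d*, 0.121.

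The suffix was then compared directly, as the difference between libraries without and with one, adjusted for genotype. This comparison was chosen after the data were seen. It rests on 468-4 and 697-4, since all *Sp3*-/- libraries had no suffix. With 697-4 coded by its file name it would rest on 468-4 alone, and it was not refitted that way. The calls below may therefore reflect 1 library. Of the 9 genes 4 passed, against 9.6% of all genes. *Cdkn2a* was higher without a suffix, by 1.38 on the log2 scale (SE 0.20, edgeR adjusted p = 0.00617), and so was *Mdm2*, by 0.55 (SE 0.15, edgeR adjusted p = 0.0455). *Cdkn1c* fell by 0.99 (SE 0.23, edgeR adjusted p = 0.0264) and *Cdkn2c* by 1.02 (SE 0.28, edgeR adjusted p = 0.0487). *Cdkn2d* and *Trp53* were at -0.30 and -0.18 and did not pass.

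Other genes moved with the suffix as well, in a comparison where 9.6% of all genes passed. Of 8 macrophage markers 7 were higher without it, by a median of 2.36 on the log2 scale over the list, against -0.01 over all genes. Of 6 endothelial markers 3 were higher without it (list median 3.35), while their summed level overlapped, at 28.7 to 72.8 CPM in 468-4 and 697-4 and 27.3 to 70.6 CPM in the 6 libraries with a suffix. The 3 called, *Pecam1*, *Cdh5* and *Tie1*, were at 2.96, 3.17 and 1.44 log2 CPM in 468-4 but -0.31, -1.11 and -1.92 in 697-4. Of 9 mesenchymal markers 2 were lower without it (list median -0.74), and they summed to 13570 and 15507 CPM in 468-4 and 697-4 against 21319 to 23117 CPM with a suffix. No epithelial, mesothelial or erythroid marker passed for the suffix. Of 12 proliferation genes 8 were lower without it, with a list median of -1.08. Their mean was 4.09 log2 CPM in 468-4 and 4.38 in 697-4, against 5.03 to 5.66 in the 6 libraries with a suffix and 4.40, 4.65 and 3.56 in *Sp3*-/-. The part of these lists in the values of *Cdkn2a*, *Cdkn1c* and *Cdkn2c* was not tested. Genotype and suffix can be told apart only through 468-4 and 697-4, or through 468-4 alone if 697-4 is coded by its file name.

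**Figure D3:**
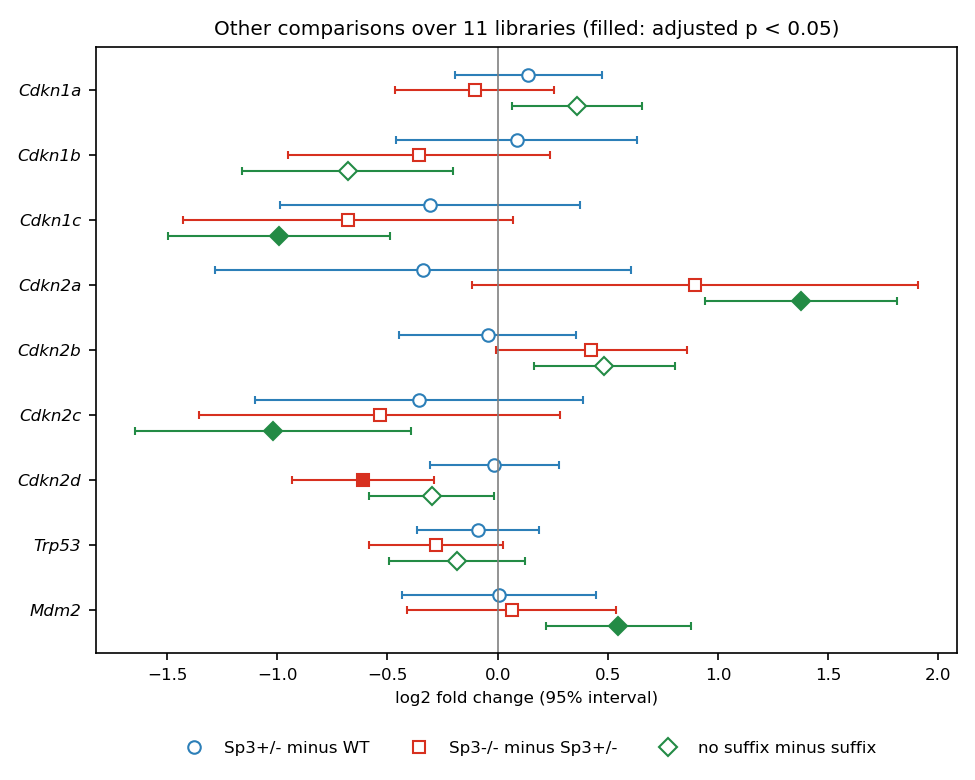
Log2 fold change with its 95% interval for *Sp3*+/- minus WT (circles), *Sp3*-/- minus *Sp3*+/- (squares) and libraries without minus with a title suffix (diamonds), each over 11 libraries. Filled symbols passed an adjusted p of 0.05, which was *Cdkn2d* between *Sp3*-/- and *Sp3*+/-, and *Cdkn1c*, *Cdkn2a*, *Cdkn2c* and *Mdm2* for the suffix.

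Losing 1 copy of *Sp3* left all 9 genes short of the threshold. The log2 fold changes in *Sp3*+/- against WT ran from -0.36 (*Cdkn2c*) to 0.14 (*Cdkn1a*). No gene of the 14130 tested passed in this comparison (0% called by edgeR, and 0 by DESeq2 and limma-voom). That includes *Sp3* itself, which was at 0.712 of its WT level (log2 fold change -0.49, SE 0.16). The comparison thus did not call the gene whose copy was lost. The lack of calls therefore does not show that the 9 genes were unchanged in *Sp3*+/- cells. An unadjusted edgeR p below 0.05 was found for 246 genes, fewer than the share of 0.05 that would arise without any difference. The narrowest interval was that of *Trp53*, from -0.37 to 0.19, and the widest that of *Cdkn2a*, from -1.28 to 0.60.

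Within the first label number, the order of *Sp3*-/- and WT means was the same for 685 (1 library each) and 697 (2 each) in 8 of the 9 genes. *Cdkn2a* in *Sp3*-/- minus WT was 1.40 and 1.18 log2 CPM, *Cdkn1c* -0.999 and -1.25, *Cdkn2d* -0.58 and -0.77 and *Trp53* -0.53 and -0.36. *Cdkn1b* differed, at 0.02 and -0.72. WT libraries of both numbers had a suffix and *Sp3*-/- libraries had none, so these values do not separate genotype from suffix, and no test was made of them.

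The genes that p53 is known to activate give a view of the axis beyond *Cdkn1a* and *Mdm2*. Of 34 such genes, 5 fell in *Sp3*-/- against WT, none rose and 29 did not pass, with a median log2 fold change of -0.13, against -0.003 over all genes. Among all genes tested 18.5% passed and 9.77% passed as lower, and the counts of this and the following lists are to be read against these shares, against 29.9% without WT 468-4 and against 10.3% with the suffix covariate. *Pidd1*, which builds a platform for caspase-2, was at 4.29 to 4.90 log2 CPM in WT and 3.62 to 3.98 in *Sp3*-/- (log2 fold change -0.86, SE 0.17, edgeR adjusted p = 0.0195). *Bbc3*, which encodes the death protein Puma, was at 4.96 to 5.18 in WT and 4.43 to 4.55 in *Sp3*-/- (-0.57, SE 0.10, edgeR adjusted p = 0.0136). *Tnfrsf10b*, a death receptor, was at 6.34 to 6.65 in WT and 5.85 to 6.12 in *Sp3*-/- (-0.49, SE 0.11, edgeR adjusted p = 0.0286). In each of these 3 genes every *Sp3*-/- library was below every WT library, while 31.3% of all genes tested had no overlap in either direction. The 3 were picked for the largest called changes in this comparison, so the lack of overlap adds no support. *Ak1* and *Sesn2* were the other 2 that passed, at -0.41 and -0.33.

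The same 5 genes passed as lower against *Sp3*+/-, where 25.5% of 14130 genes passed and 12.5% passed as lower. That comparison shares the *Sp3*-/- libraries. There *Pidd1* was at -0.82, *Bbc3* at -0.57, *Ak1* at -0.54, *Tnfrsf10b* at -0.46 and *Sesn2* at -0.28. Against WT with the suffix covariate 4 of the 34 passed, all lower, among them *Pidd1* (-0.80, edgeR adjusted p = 0.0360) and *Bbc3* (-0.49, edgeR adjusted p = 0.0195), together with *Fas* (-0.75) and *Phlda3* (-0.55). Without WT 468-4, 2 of the 34 rose and 7 fell, where 29.9% of all genes passed. Between libraries without and with a suffix 3 were called, where 9.6% of all genes passed. All were higher without, *Perp* (0.94), *Plk3* (0.71) and *Plk2* (0.65).

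**Figure D4:**
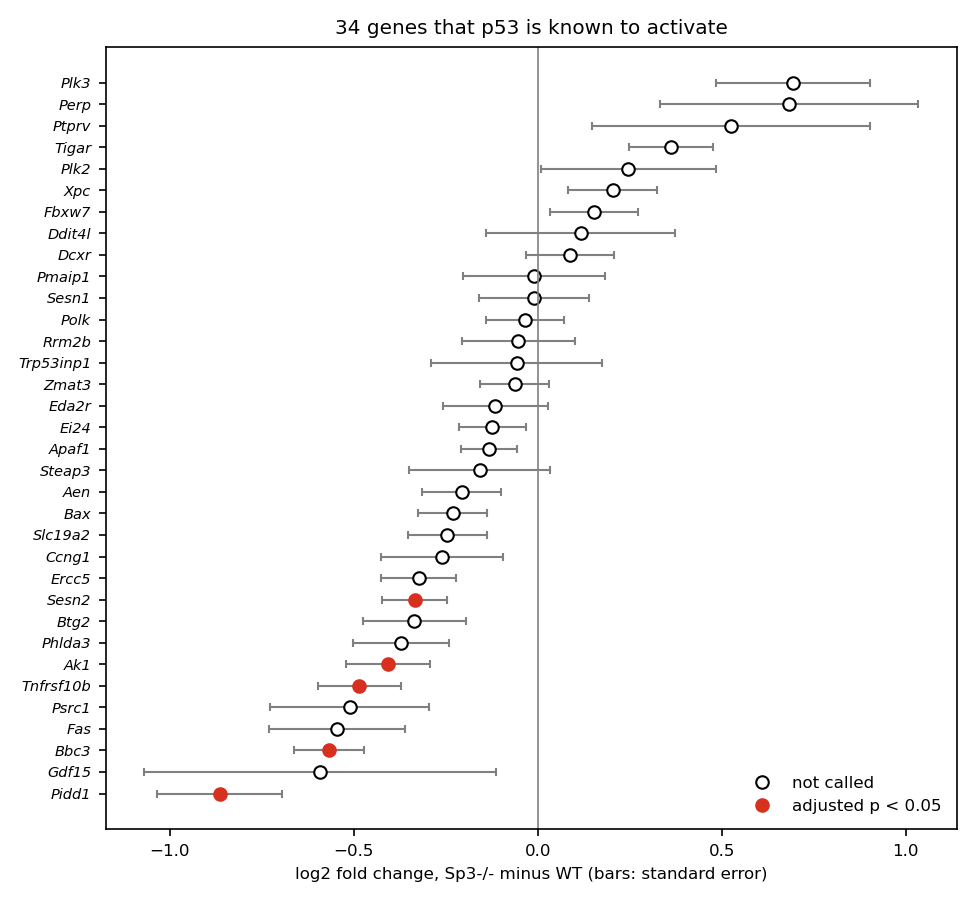
Log2 fold change in *Sp3*-/- against WT for 34 genes that p53 is known to activate, ordered by value, with standard errors as bars. Filled circles passed an adjusted p of 0.05, and all 5 of them are below 0, from *Pidd1* at -0.86 to *Sesn2* at -0.33.

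Among regulators and relatives of p53, 1 of 16 tested genes passed, *Chek2*, the checkpoint kinase of the DNA damage response, which rose in *Sp3*-/- cells (log2 fold change 0.46, SE 0.12, edgeR adjusted p = 0.0355, list median -0.003). The p53 relatives *Trp63* and *Trp73* had at most 2 and 7 reads in any library and did not enter the test. With the suffix covariate none of the 16 passed.

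Of 11 kinases and cyclins that the inhibitors bind, 3 fell in *Sp3*-/- against WT, none rose and 8 did not pass, and the list median was -0.63. *Ccne1*, cyclin E1, which p21 and p27 restrain together with Cdk2, was at 4.02 to 4.99 log2 CPM in WT and 3.42 to 3.78 in *Sp3*-/- (log2 fold change -1.18, SE 0.25, edgeR adjusted p = 0.0235). The D cyclins *Ccnd3* (-0.64, SE 0.09, edgeR adjusted p = 0.0104) and *Ccnd2* (-0.63, SE 0.13, edgeR adjusted p = 0.0235) also fell. With the suffix covariate 3 of the 11 passed, again *Ccne1* (-0.60), *Ccnd3* (-0.69) and *Ccnd2* (-0.85), and the list median was -0.06. Without 468-4, 6 of the 11 fell.

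Of 10 genes for the synthesis and turnover of p27, 1 passed, *Cks1b*, the cofactor of the ligase that degrades p27, which fell (log2 fold change -0.98, SE 0.23, edgeR adjusted p = 0.0288, list median 0.09). With the suffix covariate *Cks1b* was at -0.62 and did not pass (edgeR adjusted p = 0.0670), while *Foxo4*, a factor that activates p27 transcription, passed as higher (0.48, edgeR adjusted p = 0.0368). Of 18 regulators of the *Ink4/Arf* locus 3 fell and none rose, where 18.5% of all genes passed and 9.77% passed as lower, with a list median of -0.06. *Ets1*, an activator of p16 transcription, was at 5.42 to 5.86 log2 CPM in WT and 4.22 to 4.50 in *Sp3*-/- (-1.26, SE 0.14, edgeR adjusted p = 0.00726). *Cbx2*, a Polycomb protein that helps keep the locus silent, fell as well (-1.23, SE 0.25, edgeR adjusted p = 0.0219), as did *Kdm6b*, a demethylase that opens it (-0.98, SE 0.17, edgeR adjusted p = 0.0150). The calls in this list thus included genes of both roles. With the suffix covariate 2 of the 18 passed, *Ets1* (-1.18) and *Kdm6b* (-0.66), and without 468-4, 6 fell, where 29.9% of all genes passed.

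Of 12 proliferation genes 2 passed as lower in *Sp3*-/- against WT and none as higher, and the list median was -1.05. The 2 were *Rrm2* (-1.43, SE 0.41, edgeR adjusted p = 0.0491), a subunit of ribonucleotide reductase, and *Foxm1* (-1.40, SE 0.39, edgeR adjusted p = 0.0465), a mitotic transcription factor. *Pcna* went the other way, at 0.56 without passing (edgeR adjusted p = 0.0525), and passed as higher against *Sp3*+/- (0.68, edgeR adjusted p = 0.0129). With the suffix covariate none of the 12 passed against WT and the median was 0.09, and without 468-4, 7 fell. Of 13 tested genes associated with senescence 1 rose, *Tnfrsf1b*, a receptor of tumor necrosis factor (1.49, SE 0.30, edgeR adjusted p = 0.0219), and 1 fell, *Igfbp7* (-1.05, SE 0.15, edgeR adjusted p = 0.00981). These 2 also passed with the suffix covariate, at 1.14 and -0.95, and the list median in the comparison with all 4 WT libraries was -0.14.

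The genes whose levels ran most like each member over the 11 libraries, among 11203 genes, were found by Pearson's r on log2 CPM, as a description of libraries that share depth, suffix and genotype. For *Cdkn2d* they were *2010015L04Rik* (r = 0.99) and *Lrfn4* (r = 0.99), for *Trp53* *Med18* (r = 0.96) and *Ppp1r7* (r = 0.96), and for *Mdm2* *Mafk* (r = 0.97) and *Txnl4a* (r = 0.94). *Cdkn1a* was followed by *Fam212b* (r = 0.96) and *Odc1* (r = 0.94), *Cdkn1b* by *Klhl23* (r = 0.99) and *Cbx5* (r = 0.99), and *Cdkn1c* by *Sesn3* (r = 0.98) and *Prr3* (r = 0.98). The Ink4 genes had *Klhl5* (r = 0.97) and *Erp44* (r = 0.95) beside *Cdkn2a*, *Sh3glb2* (r = 0.96) and *Cystm1* (r = 0.96) beside *Cdkn2b*, and *Rgl1* (r = 0.98) and *Smc2* (r = 0.96) beside *Cdkn2c*. None of these 18 neighbours was itself 1 of the 9 genes. *Cdkn1a* and *Mdm2*, both p53 targets, had r = 0.86 with each other. Other pairs of the 9 were as close, *Cdkn1c* with *Cdkn2c* (r = 0.87) and with *Cdkn2d* (r = 0.85). The part of p53 in these values was not tested.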

How the data were processed

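TruSeq libraries were read as single ends of 50 bp. The authors mapped the reads to mm10 (GRCm38) with STAR, tallied them per gene symbol with htseq-count and deposited the raw counts, 1 file per library. The annotation version and strand setting are not given in the sources used here. Tallies outside genes (38.4% to 40.9% of each library) were left out. A gene entered a fit if any library of it exceeded 1 CPM. Tests used the quasi-likelihood method of edgeR 4.0.16 (TMM, robust fit) in R 4.3.3, with Benjamini-Hochberg adjustment over all genes tested. *Sp3*-/- against WT used those 7 libraries, and comparisons with *Sp3*+/- all 11. Passing means an adjusted p below 0.05. Each SE was derived from the fold change and its F statistic. Library values are log2 CPM with a prior count of 2. RPKM used GENCODE vM39 exon lengths, merged over all annotated transcripts of a gene. The scripts were tested on simulated data.

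The 9 genes and the lists were chosen with earlier results of these data known. Named genes are the 9, *Sp3*, up to 3 called genes of each list with the largest changes, and the 2 genes most like each of the 9. *Ak1*, *Sesn2*, *Fas*, *Phlda3*, *Foxo4*, *Pcna*, *Trp63*, *Trp73* and the list genes of the suffix comparison were named after their values were seen. The labels do not say which libraries share a litter, so p-values measure the spread between these libraries. No 2 libraries of a genotype agreed within counting noise (lowest chi-square per degree of freedom 16.6). Alternatives were DESeq2 1.42.0, limma-voom (limma 3.58.1) without and with a consensus correlation, 2 other scalings, 2 other filters, a block for the first label number, the title suffix as a covariate, subsets of libraries and each library left out. The suffix of 697-4 from its file name, the suffix comparison and the list counts without 468-4 were added after the data were seen.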

Additional observations from a re-analysis of the deposited data

Results flagged for a closer look

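Of 18 sets of 4 libraries examined (9 genes in WT and in *Sp3*+/-), 1 held a library far from the rest. *Cdkn2a* in WT 468-4 was at 7.90 log2 CPM, and the nearest WT library was at 6.14. The gap was 0.935 of the whole range of the genotype, above Dixon's limit of 0.829 for 4 samples. Chance alone flags about 1 set in 20, and the 18 sets share libraries.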

How the results depend on the processing

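In *Sp3*-/- against WT, 2599 genes and 1 of the 9 passed. The counts were 4297 and 2 with DESeq2, 4031 and 5 with a replicate block for the first label number, 1458 and 0 with the title suffix covariate, 272 and 0 when 697-4 was coded by its file name, 0 and 0 with only the libraries without a suffix, and 3977 genes when all 11 libraries were fitted. Leaving out each library gave 282 to 4179 genes and 0 to 6 of the 9. The lowest count was without *Sp3*-/- 697-2 and the highest without WT 468-4. In *Sp3*-/- against *Sp3*+/-, 3607 genes and 1 of the 9 passed. The counts were 919 and 0 with the suffix covariate, 0 and 0 without suffixed libraries, 2 of the 9 with the libraries of the 2 genotypes, and 1490 to 4245 genes and 1 to 3 of the 9 when each library was left out, again lowest without 697-2 and highest without 468-4. The cause was not tested.

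Of 567 values of the 9 genes under the alternatives, 51 turned direction, and in none of these did the gene pass either time. For *Sp3*-/- against WT, *Cdkn1a* was at -0.026 with upper quartile scaling. With the suffix covariate, with 697-4 coded by its file name and with unsuffixed libraries alone, in that order, *Cdkn1a* was at -0.23, -0.15 and -0.16, *Cdkn1b* at 0.28, 0.39 and 0.37, *Cdkn2a* at -0.24, -0.54 and -0.55, and *Mdm2* at -0.33, -0.21 and -0.22. In the latter pair of fits *Cdkn2b* was at -0.087 and -0.094 and *Cdkn2c* at 0.32 and 0.31. For *Sp3*+/- against WT, *Cdkn2c* was at 0.38 and *Trp53* at 0.088 in unsuffixed libraries, *Cdkn2d* at 0.017 with limma-voom and 0.019 with its consensus correlation, and *Mdm2* at -0.019 with the suffix covariate. For *Sp3*-/- against *Sp3*+/-, the suffix covariate and the unsuffixed libraries gave 0.17 and 0.055 for *Cdkn1b*, 0.13 and 0.11 for *Cdkn1c* and -0.31 and -0.44 for *Mdm2*, and the covariate gave -0.096 for *Cdkn2a* and 0.26 for *Cdkn2c*. *Mdm2* was at -0.0059 with upper quartile scaling and -0.0041 with the replicate block. Leaving out each library moved *Cdkn1a* from -0.067 to 0.15 and *Mdm2* from -0.10 to 0.18 in *Sp3*-/- against WT, and from -0.21 to 0.026 and -0.12 to 0.27 against *Sp3*+/-. In *Sp3*+/- against WT it moved *Cdkn1b* from -0.069 to 0.23, *Cdkn2a* from -0.62 to 0.36, *Cdkn2b* from -0.15 to 0.16, *Cdkn2d* from -0.073 to 0.056 and *Mdm2* from -0.20 to 0.12.

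The first label number was not taken to pair the libraries, since not every pair of libraries with the same number and different genotypes had deviations correlated above 0.1. Of 14 such pairs 7 did. These were all 5 pairs of 685 (0.14 to 0.38) and 2 of the 8 pairs of 697 (-0.70 to 0.41), and the 1 pair of 468 was at -0.51, so the replicate block is given here only. The count of 3 *Sp3*-/- libraries, the lowest holding 9849111 reads on genes, limits the precision, and the intervals beside each gene give the changes that could not be resolved.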
